A study of Mus musculus with 6 samples.

Results

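The genes described here carry membrane vesicles to the apical surface or sort their cargo: the Rab27 effectors Sytl1, Sytl2, Sytl4 and Sytl5, the class V myosin motors Myo5a, Myo5b and Myo5c, and Mal, Snx31 and Ap1m2. They were chosen by name with earlier results of these data known, so the counts and medians below describe these genes and test nothing. Every probe set annotated to 1 of them alone was read. Of the 10 genes, 9 had such a probe set, of 18193 genes on the array that did. These 9 genes have 16 probe sets, of 45037 that are not controls. Sytl5 had none and was not analysed here.

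Bladder epithelium of mice at postnatal day 7 was digested to single cells, and the RNA of cells with and without DsRed, a red fluorescent protein, was amplified in 2 rounds and measured on 6 Affymetrix Mouse Genome 430 2.0 arrays. The labels give all 6 arrays the strain FVB/N x C57BL/6, the sex male and the allele B6;129P-Upk1btm1Zhang/J as the gene reported. There were 3 arrays of DsRed-positive and 3 of DsRed-negative cells, both sets carrying the numbers 1, 2 and 5, and samples were not pooled. The labels state neither how the cells were separated nor whether different animals gave the samples. The p-values therefore cover only the spread among these arrays, which may be technical, and their small number limits the precision.

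The cells that line the bladder lumen store uroplakin plaques in discoid, or fusiform, vesicles and insert them into the apical membrane as the bladder fills. Rab27b sits on these vesicles, and synaptotagmin-like (Slp) proteins, encoded by the Sytl genes, bind active Rab27 and tether its vesicles to the plasma membrane. Class V myosins walk along actin with Rab11 and Rab27 vesicles as cargo, MAL is a raft protein of the apical route, sorting nexin 31 binds uroplakins on endosomes, and Ap1m2 encodes the medium subunit of the epithelial form of the AP-1 clathrin adaptor.

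In DsRed-positive cells 7 of the 9 measured genes were higher: Sytl1, Sytl2, Myo5b, Myo5c, Mal, Snx31 and Ap1m2. On 1 probe set per gene, the brightest, the log2 changes of 6 of them ran from 3.72 for Sytl1 to 6.19 for Sytl2. Myo5c, without measurable signal in DsRed-negative cells, was at least 10.8-fold higher and was tested only through the DsRed-positive group. The groups did not overlap for 8 of the 9, against 22.0% of all genes with DsRed-positive arrays above. Sytl4 (0.70) and Myo5a (0.92) did not pass the threshold, an adjusted p of 0.05 by limma over all probe sets tested. No gene was lower, and no probe set of these genes was lower at an unadjusted p under 0.05 either. Of all 14222 genes tested, 9.21% were higher and 11.3% lower. The median change of the 9 genes was 4.44, or 3.89 with Myo5c at its lower bound, against 0.04 over all genes. Epithelial markers, described below, had medians of the same size. These were 3.98 for general epithelium and 4.44 for superficial urothelium, or 3.91 with Psca at its lower bound. The superficial markers include Upk1a, Upk2 and Upk3a, which are also read as uroplakins below.

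Every gene had a probe set bright enough to be tested, but 2 of the 16 probe sets, the dimmer ones of Sytl4 and Myo5c, fell below the limit on the mean signal (log2 7.18). Of the 14 tested probe sets 10 were higher, and 0 lower, against 8.63% higher, 8.62% lower and 17.2% in either direction of all 30175. The groups did not overlap for 12 of the 14, where DsRed-positive arrays all lay above DsRed-negative ones for 21.0% of all probe sets. Over the whole array 2605 probe sets were higher and 2600 lower after the quantile normalization used here. Of all called probe sets, 38.8% were higher on the scale of the deposited table and 67.8% once array medians had been set equal. The median change of all genes was -0.17 and 0.37 in these scalings.

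**Figure D1:**
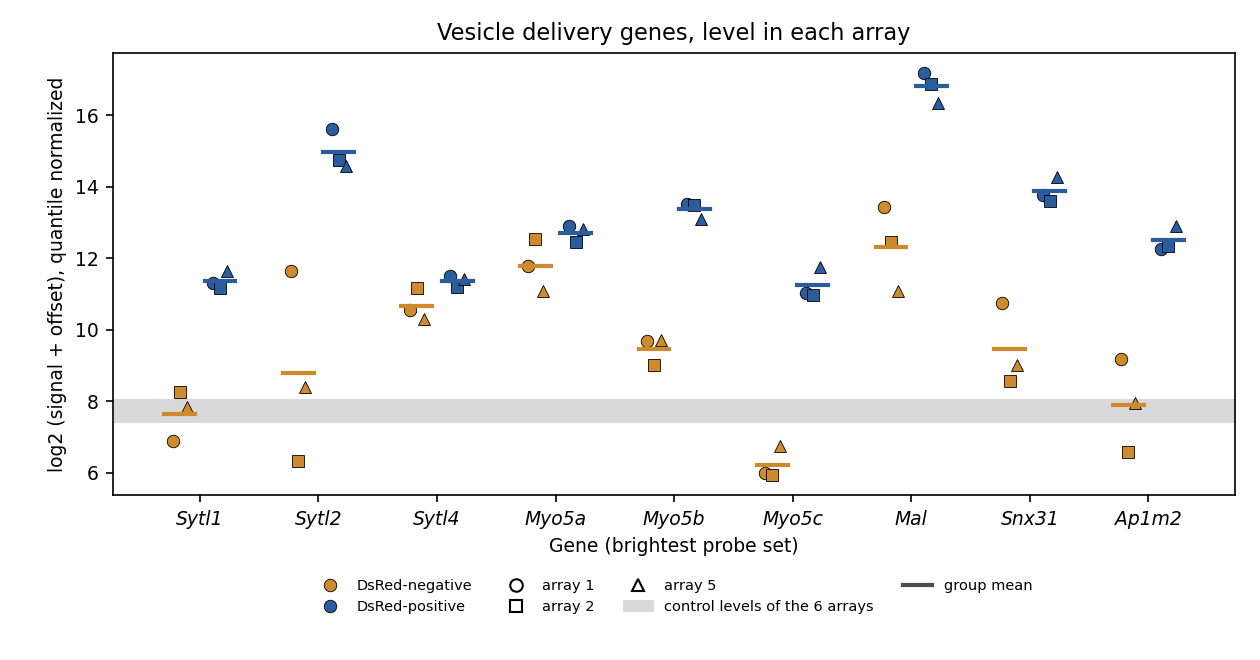
Normalized log2 signal (vertical axis) of the brightest probe set of each of the 9 genes in each of the 6 arrays, with bars at the group means and a grey band over the control levels of the 6 arrays (7.41 to 8.03). DsRed-positive points lie above all DsRed-negative points of the same gene except for Myo5a, and the DsRed-negative points of Myo5c lie below the band.

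The control level of an array is the 95th percentile of its 27 bacterial control probe sets, which match no mouse transcript, and signal at or below it is no measured level. Some properties of whole arrays moved with the groups or set single arrays apart. Both arrays numbered 1 had high signal of Xist (45699 in DsRed-negative 1 and 28183 in DsRed-positive 1, against 203 to 546 elsewhere) and little of the Y-linked Eif2s3y (3.83 and 31.2, against 3309 to 8043), although labelled male. Without these arrays the same 7 genes were higher, while the share of all genes that were higher dropped to 3.36%. Mean log2 signal of hybridization spikes was 12.8 to 14.3 in DsRed-positive and 14.3 to 16.3 in DsRed-negative arrays. The ratio of 3′ to 5′ signal was 11.9 to 16.4 against 10.2 to 12.8 for Gapdh and 4.28 to 5.57 against 6.85 to 9.49 for beta-actin. The part of these differences in the results was not tested.

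Markers of the tissue around the urothelium gave more signal in DsRed-negative cells. All 6 fibroblast markers were lower in DsRed-positive cells, and their summed deposited signal was 547843 to 1364570 in DsRed-negative and 13894 to 26643 in DsRed-positive arrays. Smooth muscle markers were lower for 4 of 5 tested (sums 96641 to 187415 against 1949.5 to 2829.9), endothelial for 3 of 4 (5646 to 10210.4 against 864.5 to 1091), leukocyte for 5 of 6 (19225 to 32080.1 against 739.6 to 1436) and mast cell for 2 of 4 (19659 to 28685 against 401 to 584). None of the 4 Schwann cell and neuron markers tested passed (1334 to 2433 against 604 to 852), nor any of the 3 melanocyte markers tested (1834 to 2478 against 582 to 1417), and the melanocyte genes Tyrp1 and Mlana lay at or below the control level on all 6 arrays. Markers of general epithelium were higher for 5 of 5 (17795 to 33103 in DsRed-negative and 230288 to 360160.0 in DsRed-positive arrays), of superficial urothelium for 5 of 5 (3147 to 7910.4 against 64206 to 110691) and of basal urothelium for 4 of 5 (6712 to 11902 against 42289 to 65896). Without both arrays numbered 1, general epithelium stayed at 5 of 5, while superficial markers were higher for 4 of 5 and basal markers for 1 of 5, Krt5. The median log2 change of the basal markers was 2.43 in that setting and 2.17 with all 6 arrays. Some of the called markers had 1 group mean below the limit on mean signal. Psca was thus tested only through the DsRed-positive group, and Actg2, Tek, Ptprc, Coro1a, Cpa3 and Cma1 only through the DsRed-negative group. Fewer cells of a type and less RNA per cell cannot be told apart in such samples, and the part of cell makeup in the results below was not tested.

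Of the Rab27 effectors, Sytl2 had the largest fitted change, though its size rested on single DsRed-negative arrays. Sytl2 encodes Slp2, which links Rab27 vesicles to phospholipids of the plasma membrane. On the deposited scale, DsRed-positive arrays 1, 2 and 5 read 35139, 28477 and 24274, and their DsRed-negative counterparts, in the same order here and below, 3086, 52.9 and 354. The DsRed-positive arrays agreed within 0.55 (SD, log2, n = 3), while the DsRed-negative arrays spread over 2.68, from 11.64 in array 1 to 6.32 in array 2, below that array's control level of 7.69. The log2 change was 6.19 ± 1.19 (SE, adjusted p = 0.0111 by limma). The change was 7.64 without DsRed-negative 1 and 4.96 without DsRed-negative 2, both past the threshold. It missed the threshold without DsRed-positive 1 (5.88, adjusted p = 0.0532) and without both arrays numbered 5 (6.15, adjusted p = 0.0964).

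Sytl1 encodes Slp1, a relative of Slp2 with the same Rab27-binding end. DsRed-positive cells gave 2679.7, 2220.3 and 3231, and DsRed-negative cells 101, 356 and 228. DsRed-negative 1 and 5 lay at or below the control level, so a DsRed-negative level was measured only in array 2, the array in which Sytl2 was not measurable. The log2 change was 3.72 ± 0.43 (adjusted p = 0.00118).

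Sytl4 encodes granuphilin, the Rab27 effector known from docking of insulin granules. Its brighter probe set read 3129, 2239.9 and 2743 in DsRed-positive and 1449.7, 2211 and 1264 in DsRed-negative cells. Array 2 was nearly level between the groups, at 1.01-fold on the deposited scale, while arrays 1 and 5 differed 2.16-fold and 2.17-fold. The log2 change of 0.70 ± 0.36 did not pass (adjusted p = 0.223), although it did with array medians set equal (1.27, adjusted p = 0.0374). The other Sytl4 probe set was not tested and read 21.7 to 121 in DsRed-positive and 46.7 to 294 in DsRed-negative arrays, with overlapping groups.

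Changes within the Slp family were set against each other in each array. Sytl1 changed by 3.02 ± 0.37 (SE) more than Sytl4, and Sytl2 by 5.48 ± 1.73 more than Sytl4. Each difference had p = 0.1 in a two-sided exact permutation test, the smallest that 3 arrays against 3 can give, or 0.12 adjusted over the 6 family pairs measured. Sytl1 minus Sytl2 was -2.47 ± 1.99 (p = 0.4 by the same exact test). The values for Sytl1 and Sytl2 include DsRed-negative arrays at or below the control level.

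**Figure D2:**
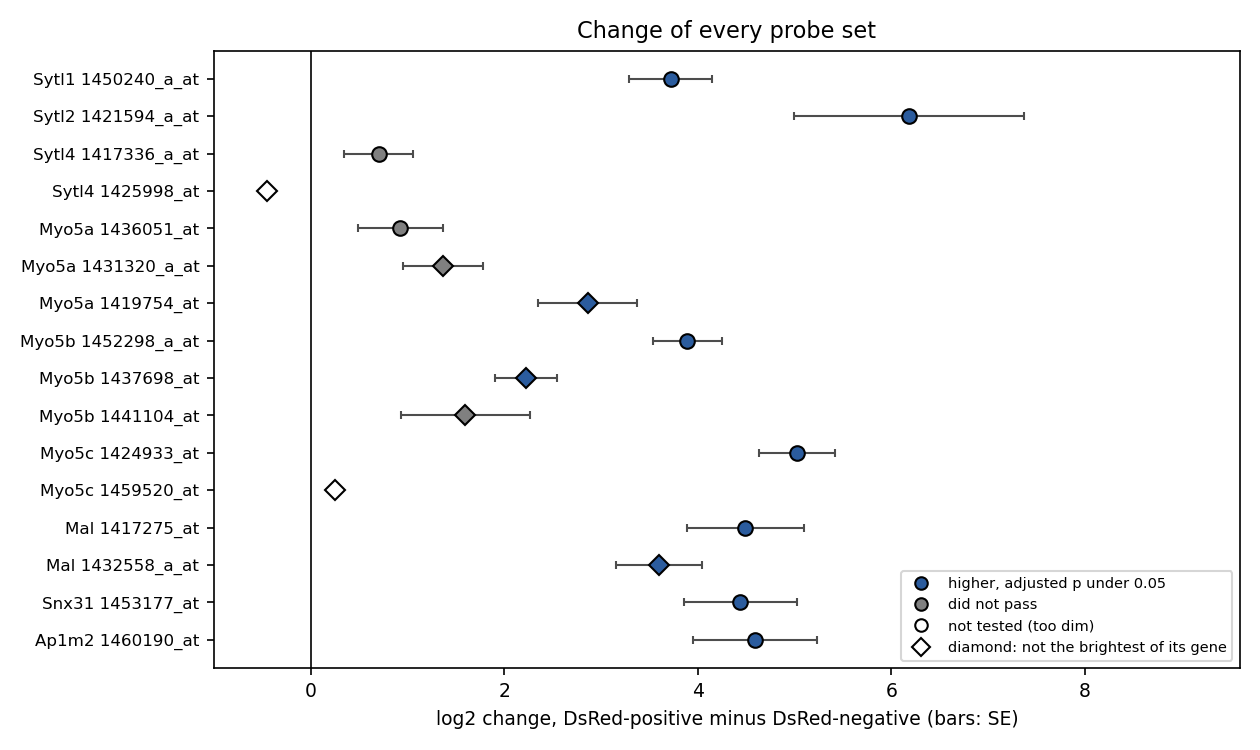
Log2 change between groups (horizontal axis, DsRed-positive minus DsRed-negative, bars for SE) of all 16 probe sets, with circles for the brightest of each gene and diamonds for the others. The 10 filled blue probe sets passed, from 2.22 for the second Myo5b probe set to 6.19 for Sytl2, and the 3 Myo5a probe sets spread from 0.92 to 2.86. The brighter Myo5c probe set is drawn at its fitted value, which is no measured change.

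Of the motors, Myo5c was measurable only in DsRed-positive cells. It encodes the class V myosin of glandular and other epithelia, which moves secretory vesicles. Its brighter probe set read 2181, 1899 and 3451 in DsRed-positive cells, against 29.2, 30.3 and 82.3 in DsRed-negative cells. All 3 DsRed-negative arrays lay below their control levels and below the limit on mean signal, so the gene entered the test only through the group where it was high. The DsRed-positive mean was 11.25 ± 0.43 (log2, SD, n = 3). Set against the control level of each DsRed-negative array, Myo5c was at least 10.8-fold higher, a bound below the 14.9-fold change of Myo5b. The other Myo5c probe set lay at or below the control level on all 6 arrays.

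Myo5b encodes the motor that binds Rab11 and carries recycling endosomes toward the apical membrane. Its brightest probe set read 12082, 12039 and 8769 in DsRed-positive cells, against 799, 589.9 and 864. The spread within each group was small beside the gap: means were 13.36 ± 0.24 (SD, n = 3) and 9.47 ± 0.39. Myo5b rose by 3.89 ± 0.36 (SE, adjusted p = 4.49e-04). The second probe set rose by 2.22 ± 0.32 (adjusted p = 0.00329), and missed the threshold without both arrays numbered 1 (2.20, adjusted p = 0.0551). The dimmest of the 3 did not pass (1.60, adjusted p = 0.148): DsRed-positive cells gave 622, 632 and 234 and DsRed-negative cells 240.3, 411 and 38.6, so the groups overlapped. It passed with the array number as a replicate block (adjusted p = 0.046 by limma).

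Myo5a encodes the motor of melanosomes and of vesicles in neurons. Its brightest probe set read 8202, 5649.6 and 7289 in DsRed-positive cells, against 3364, 5578 and 2071. DsRed-negative 2 lay within the DsRed-positive range after normalization, and the log2 change was 0.92 ± 0.44 (adjusted p = 0.196). This value passed with array medians set equal (1.57, adjusted p = 0.0321). The second probe set gave 1.37 ± 0.42 (adjusted p = 0.0626). It passed with array medians set equal (1.87, adjusted p = 0.0189), without DsRed-negative 5 (1.69, adjusted p = 0.0415) and in 3 settings of the offset, filter and variance model (adjusted p from 0.0319 to 0.0469). The third rose by 2.86 ± 0.51 (adjusted p = 0.00849), with 4065, 3174 and 6683 against 837, 857 and 314, and missed the threshold without both arrays numbered 1 (3.17, adjusted p = 0.0687). With the mean of all 3 probe sets, the gene rose by 1.72 (adjusted p = 0.00586). Whether the probe sets differ from each other was not tested.

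Between the motors, the log2 change of Myo5a minus that of Myo5b was -2.97 ± 0.67 (SE), with p = 0.1 by the exact permutation test, the smallest possible, and 0.12 after adjustment. Myo5c has only a lower bound and was not ranked against them. In the RefSeq annotation Myo5a and Myo5c are neighbours on chromosome 9, with 2 genes between them, neither of them protein-coding.

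Mal encodes a small membrane protein of lipid rafts that apical transport carriers contain. Its brighter probe set gave 61477, 106437 and 76697 in DsRed-positive cells, against 10801, 5259 and 2068. On this deposited scale the lowest DsRed-positive array was 5.69-fold above the highest DsRed-negative array, and both carry the number 1. The log2 change was 4.49 ± 0.60 (SE, adjusted p = 0.00234). The second probe set agreed in direction, at 3.60 ± 0.44 (adjusted p = 0.00157), with 20220.5, 30142 and 31205 against 2840.0, 3011 and 1260.1. DsRed-negative cells still gave Mal signal far above their control levels of 203 to 268 on the deposited scale.

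Snx31, the sorting nexin of uroplakin-bearing endosomes, read 14023, 12989.5 and 19787 in DsRed-positive cells, against 1675, 447 and 544. It rose by 4.44 ± 0.58 (SE, adjusted p = 0.00213). Ap1m2 read 5318, 5213 and 7725 against 583, 72.1 and 248, and rose by 4.59 ± 0.64 (adjusted p = 0.0027). DsRed-negative 2 and 5 lay at or below the control level for Ap1m2, so only DsRed-negative 1 gave a measured level there. For both genes DsRed-negative 1 was the highest array of its group.

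**Figure D3:**
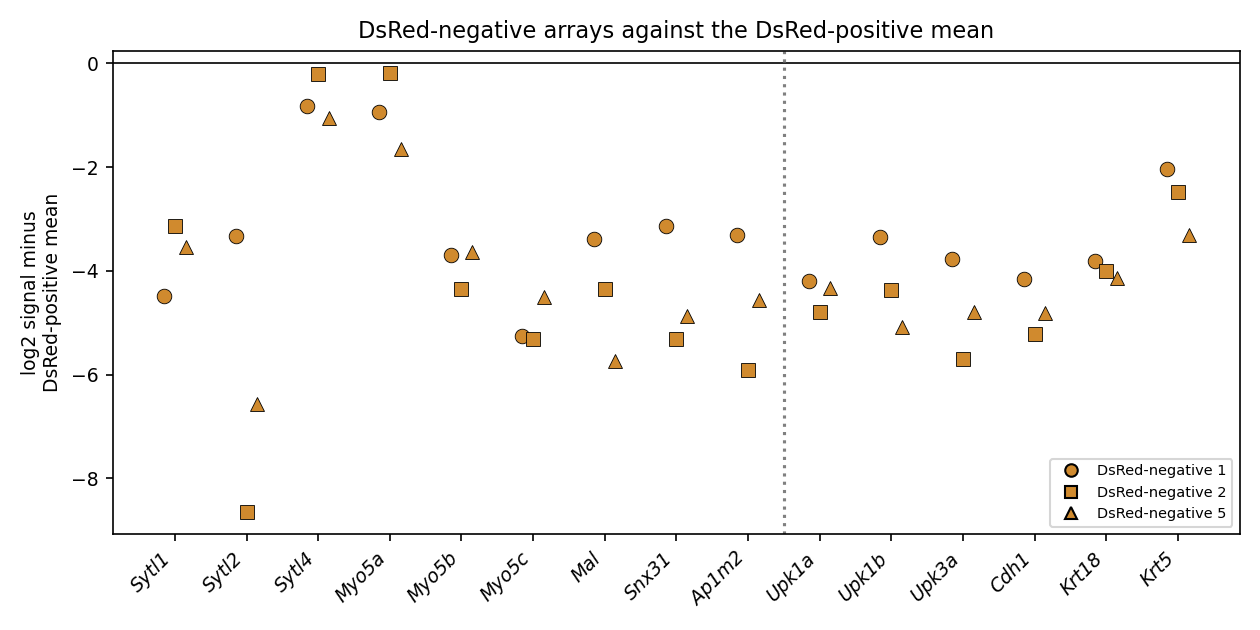
Log2 signal of each DsRed-negative array minus the DsRed-positive mean (vertical axis) for the 9 genes and, right of the dotted line, 3 uroplakins, Cdh1, Krt18 and Krt5. For Sytl2, Mal, Snx31, Ap1m2, Upk1b and Cdh1 array 1 lies nearest to 0, whereas for Sytl1, Sytl4 and Myo5a it is array 2. All 3 Myo5c points are at or below the control level and have no order.

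The DsRed-negative arrays therefore did not rank alike for all genes. Array 1 was the highest of the 3 for Sytl2, Mal, Snx31 and Ap1m2, and the summed signal of general epithelial markers was also highest there (33103, against 23231 in array 2 and 17795 in array 5). Sytl1, Sytl4 and the brightest Myo5a probe set were highest in array 2. Where the DsRed-negative array was above its control level, ratios between arrays of the same number can be given on the deposited scale. Sytl2 differed 11.4-fold in number 1 and 68.6-fold in number 5, and Ap1m2 9.12-fold in number 1. For Myo5b the ratios were 15.1, 20.4 and 10.1 in numbers 1, 2 and 5.

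RefSeq promoters (build GRCm38.p6, 250 bases before to 50 after the start) were found for 7 of the 10 genes. Those of Myo5c, Mal and Ap1m2 are shown because these genes rose and their windows hold letters of motifs named for epithelial regulators. Of the 8 motifs searched on both strands, AACNNGTT is that of grainyhead factors and AGGAAG that of ETS factors. GGGCGG stands for KLF and SP factors, AGATAA for GATA and TGTTTAC for FOXA. The letters AGGTCA are bound by nuclear receptors, and the p63 motif was taken as a pair of CATG with any 4 bases between them. The E-box of the ZEB and SNAI repressors was searched as CACCTG. The last was added after the Ap1m2 sequence had been read. Capitals mark matches, and sequences run 5′ to 3′ on the strand of the gene.
Myo5c, chr9:75231764-75232063, plus strand: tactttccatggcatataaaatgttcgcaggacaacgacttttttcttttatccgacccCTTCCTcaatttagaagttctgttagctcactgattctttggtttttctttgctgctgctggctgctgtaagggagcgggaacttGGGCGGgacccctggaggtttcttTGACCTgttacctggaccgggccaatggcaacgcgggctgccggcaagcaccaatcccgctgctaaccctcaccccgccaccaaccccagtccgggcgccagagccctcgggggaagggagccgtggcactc
Mal, chr2:127656646-127656945, minus strand: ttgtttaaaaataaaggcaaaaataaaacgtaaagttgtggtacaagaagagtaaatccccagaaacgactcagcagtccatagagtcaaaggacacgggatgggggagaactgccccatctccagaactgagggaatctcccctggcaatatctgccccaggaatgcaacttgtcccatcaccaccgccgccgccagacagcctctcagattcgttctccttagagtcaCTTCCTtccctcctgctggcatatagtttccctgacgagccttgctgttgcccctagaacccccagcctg
Ap1m2, chr9:21312284-21312583, minus strand: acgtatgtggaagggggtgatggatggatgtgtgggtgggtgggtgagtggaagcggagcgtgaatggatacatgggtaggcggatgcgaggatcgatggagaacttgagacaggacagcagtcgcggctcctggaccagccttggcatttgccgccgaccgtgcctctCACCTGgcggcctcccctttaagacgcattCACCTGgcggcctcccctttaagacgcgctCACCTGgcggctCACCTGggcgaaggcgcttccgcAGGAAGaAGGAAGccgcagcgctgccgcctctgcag

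The Ap1m2 window holds CACCTG 4 times, beginning 81, 51, 21 and 9 bases before the start. At least 1 copy was found in 20.2% of the 32851 promoters of the same length, and 4 or more in 18 of them, or 0.0548%. As this motif was added after the sequence had been read, these shares describe the window and test nothing. A stretch of 28 bases that contains the motif occurs again 30 bases further on. The ETS letters AGGAAG, held by 35.4% of promoters, were found in 3 of the 7 windows, with 2 copies in Ap1m2. These are the 3 windows shown, which were picked for holding matches. Myo5c also had 1 match to GGGCGG (35.7% of promoters) and 1 to AGGTCA (16.3%). No letters of the grainyhead, GATA, FOXA or p63 motifs, held by 4.2%, 11.2%, 3.65% and 0.776% of promoters, were found in the windows of the 7 genes. The windows of Sytl1, Sytl4 and Sytl5 matched none of the 8 motifs, and that of Myo5a matched GGGCGG once. A match describes letters and shows no binding, and a window without a match says nothing of the factor.

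The partners of these genes were read on 1 probe set each, from 9 lists. Their counts stand beside 9.21% of all genes higher and 11.3% lower. Rab27b, the GTPase that recruits the Slp proteins, rose by 4.52 ± 0.42 (SE, adjusted p = 4.83e-04), while its paralog Rab27a had a value of 0.36 (adjusted p = 0.492). Of the 5 genes for Rab27 and its regulators, Rab27b alone passed, joined by Tbc1d10a with array medians set equal. Of 5 other Rab27 effectors tested 2 rose: Exph5, which encodes Slac2-b, at least 7.81-fold higher, and Mlph, the melanophilin that joins Rab27a to myosin Va, by 1.88 ± 0.33 (adjusted p = 0.00753), though Mlph did not pass without both arrays numbered 1. Exph5 lay at or below the control level in all 3 DsRed-negative arrays and was tested only through the DsRed-positive group. Myrip (-0.80), Rph3a (-0.04) and Rph3al (0.21) did not pass. Unc13d was too dim to be tested, and Sytl3 was not analysed here because its probe sets name several genes.

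Among 10 myosin V partners and Rab11 effectors 4 rose, with a median of 0.68. Rab25, the epithelial Rab11 relative, had a fitted change of 5.98 ± 0.68 (adjusted p = 0.00114). As 2 of its DsRed-negative arrays were at or below the control level and their group mean was below the limit on mean signal, it too was tested only through the DsRed-positive group. Rab11fip1 (2.63), Rab11a (2.06) and Rab11fip5 (1.26) rose too, the last not on the deposited scale, where Rab11fip3 was lower. Without both arrays numbered 1, only Rab25 of the 10 passed, with a list median of 0.70. The exocyst, which tethers arriving vesicles, had 1 of 9 genes higher, Exoc6 (1.77, adjusted p = 0.0219), with a median of 0.46. That count is near the share of all genes, 9.21%. It was 3 of 9 with array medians set equal, where 18% of all genes were higher, and none without both arrays numbered 1.

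The AP-1 complex did not move as a block. Of 9 other AP-1 and adaptor genes 3 rose and 1 fell, with a median of 1.55. The small subunit genes Ap1s3 and Ap1s2 went opposite ways, with both directions kept in the scalings tried. Ap1s3 rose by 4.18 ± 0.89 (adjusted p = 0.0173) and Ap1s2 fell by 5.10 on the log2 scale (SE 0.91, adjusted p = 0.00825). The small subunit gene Ap1s1 had a value of 0.09 and did not pass (adjusted p = 0.913 by limma). Ap1s2 was at or below the control level in 2 DsRed-positive arrays and Ap1s3 in 1 DsRed-negative array, so these sizes are uncertain. Ap1b1, the large beta subunit, rose by 1.60 and the accessory gene Aftph by 1.57. Ap1m1, which encodes the medium subunit of the ubiquitous AP-1, had a value of -0.91 (adjusted p = 0.21), against 4.59 for Ap1m2. Without both arrays numbered 1, none of these 9 partners passed, while Ap1m2 did. The median of the 9 partners was 1.34 in that setting.

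MAL relatives were split. Of 11 genes 4 rose and 3 fell, with a median of 0.23. Mal2, a transcytosis protein of epithelia, rose by 4.66 ± 0.43 (adjusted p = 4.74e-04), and the tricellular junction gene Marveld2 by 4.63 ± 0.76. Marveld3 (2.85) and Cmtm4 (1.78) rose as well, though not without both arrays numbered 1. Those that fell were Marveld1 (-4.66), Cmtm7 (-3.91) and Cmtm3 (-2.48). The same 7 genes were called under the other scalings. Signal was at or below the control level for Mal2 in 2 and for Marveld2 in 1 DsRed-negative array, and for Cmtm7 in 2 DsRed-positive arrays.

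Of 28 other sorting nexins tested, Snx10 rose (2.55 ± 0.50, adjusted p = 0.0118), 3 fell and 24 did not pass, with a median of -0.17. Those that fell were Snx21 (-2.08), Snx24 (-1.64) and Snx22 (-1.29). The counts were 2 higher and 2 lower on the deposited scale, and 4 and 1 with array medians set equal. Snx24 was lost in both other scalings, Snx22 with array medians set equal, and all 3 without both arrays numbered 1. None of 15 other unconventional myosins tested passed, and their median was 0.02. Myo6, a motor that moves toward the minus end of actin, had a value of -0.46 and Myo1d one of -0.14. Myo1f, a myosin of leukocytes, was lower under both other scalings. As normalized here, it lay at or below the control level in all 3 DsRed-positive arrays. Their mean (log2 6.59) was below the limit on mean signal, so Myo1f was tested only through the DsRed-negative group. The 5 uroplakins, the cargo, were all higher, from 3.20 for Upk2 to 5.48 for Upk3b, with a median of 4.44, and 4 of them, all but Upk2, without both arrays numbered 1. The sample titles call the groups uroplakin +ve and -ve, and the labels give an allele of Upk1b. The values of Upk1b and the other uroplakins may therefore not be independent of how the groups were made, which was not tested. This includes Upk1a, Upk2 and Upk3a among the superficial markers.

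**Figure D4:**
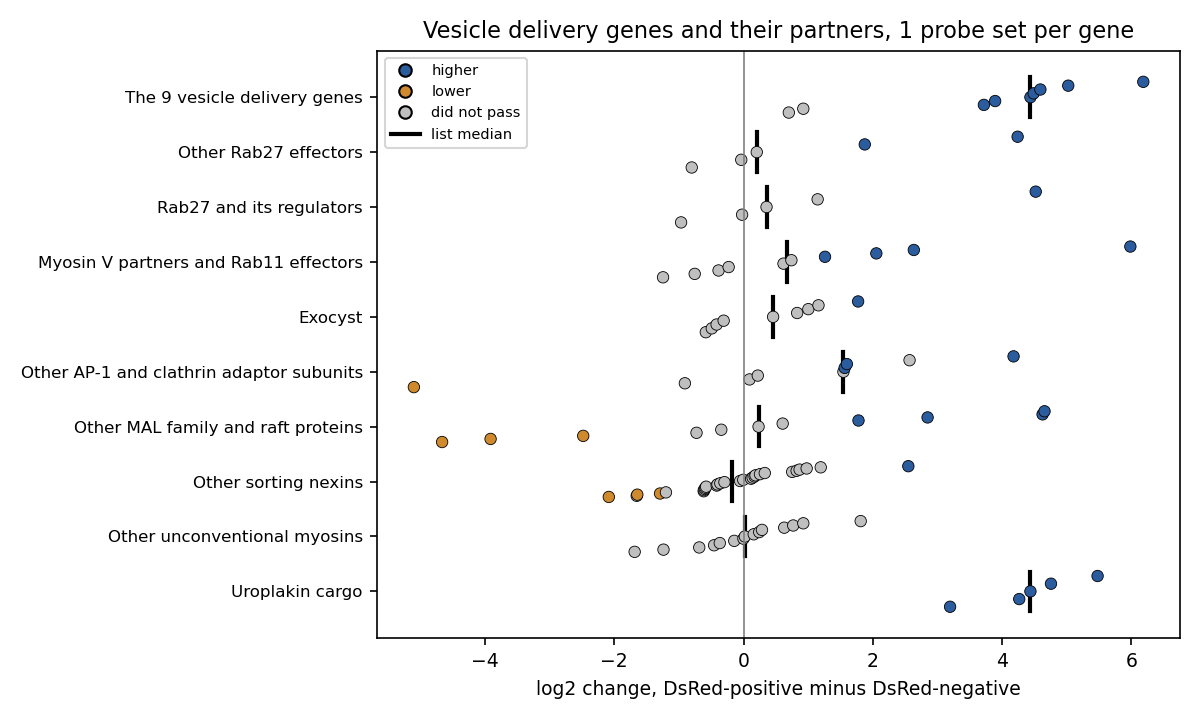
Log2 change between groups (horizontal axis) of each tested gene in the vesicle delivery set and the 9 partner lists, 1 point per gene coloured by call, with bars at the list medians. The vesicle delivery genes and the uroplakins have medians of 4.44, and the other lists drawn have medians from -0.17 to 1.55. With Myo5c at its lower bound, the median of the vesicle delivery genes is 3.89. Not drawn are the markers of superficial urothelium (median 4.44) and general epithelium (3.98). Upk1a, Upk2 and Upk3a are in both the superficial and the uroplakin list, and both medians are the value of Upk1a.

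**Figure D5:**
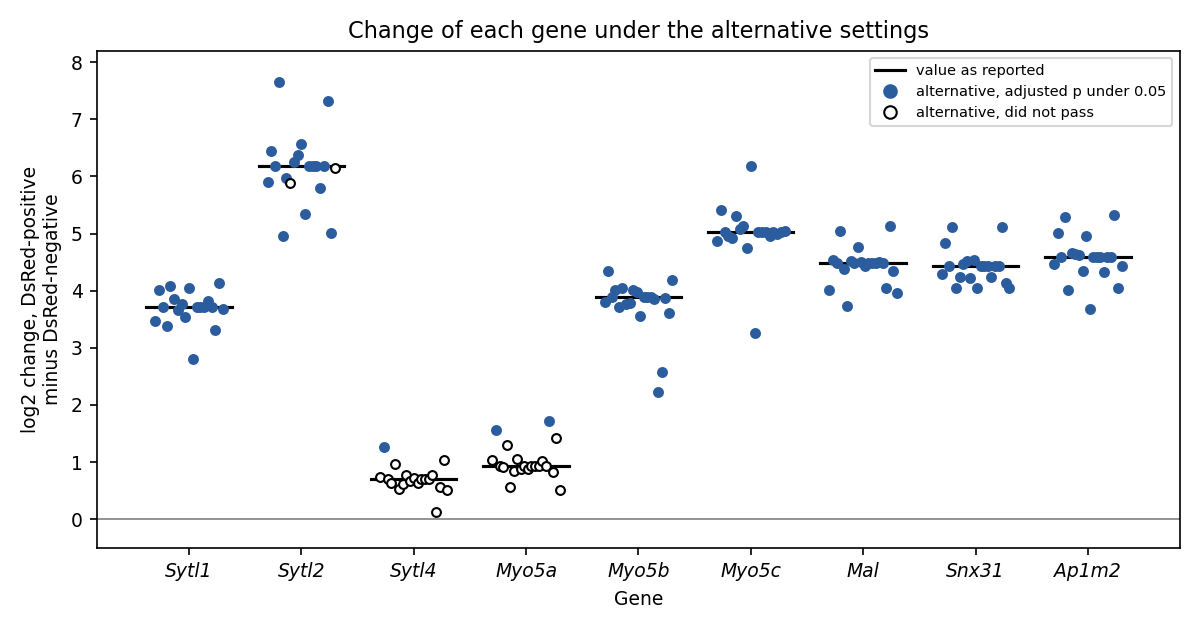
Log2 change of each of the 9 genes (vertical axis) as reported (line) and under each alternative setting (points, open where the adjusted p missed 0.05). Sytl1, Myo5b, Myo5c, Mal, Snx31 and Ap1m2 have no open points, Sytl2 has 2, and Sytl4 and Myo5a pass in 1 and 2 settings.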

How the data were processed

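The table deposited by the authors holds linear probe set intensity from 6 arrays. GCOS is named in the submitters' processing notes, with its version and settings not given in the sources used here. Every array has a mean of 1500.01 once 2% of values are trimmed from either end, a common scale. An offset of 39.84 (the 20th percentile) was added before log2, which compresses folds of dim probe sets, and log2 values were quantile normalized because array medians spanned 0.74. After removal of 64 controls, the 30175 whose mean exceeded the 33rd percentile were tested with limma 3.58.1 in R 4.3.3 (lmFit and eBayes, two-sided, no covariates), with Benjamini-Hochberg adjustment over all of them. The fit was checked on simulated data. Control levels are the 95th percentile of 27 bacterial control probe sets of each array. A gene is read by its single-gene probe set of highest mean. The platform annotation gave the symbols, updated by gene ID for 34741 of the 34945 probe sets with 1 symbol. Named were all members and, of each partner list, up to 4 called genes of smallest p and any that went the other way; other partners were named after their values were seen. Members and lists were chosen with earlier results of these data known. Alternatives covered scaling, offset, filter, variance model, array weights, probe sets, a replicate block and leaving out arrays. The labels do not say whether the numbers 1, 2 and 5 pair the arrays, and the main fit left any pairing out.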

Additional observations from a re-analysis of the deposited data

How the results depend on the processing

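No gene of the 9 was lower in the alternatives run, and none changed sign where it had a value. The count of higher genes was 6 to 7 without 1 of the 6 arrays, 7 on the deposited scale (1233 of all 14237 genes higher), 9 with array medians set equal (2568 of all 14237 genes), 5 without probe sets ending in _s_at, _x_at or _a_at, and 7 without both arrays numbered 1 or 2 and 6 without those numbered 5, alternatives chosen after seeing the data. Higher probe sets numbered 9 to 11 without 1 array, 8 without both arrays numbered 1 and 6 without those suffixes, where fewer probe sets were read. In that last setting Sytl1, Sytl2 and Sytl4 have no value, as the remaining Sytl4 probe set was too dim to be tested. With the mean of all probe sets, Myo5c fell below the limit on mean signal. Deviations from the group means correlated weakly between arrays of the same number (r = 0.14, 0.04 and 0.05 for numbers 1, 2 and 5). The main fit therefore took no pairing by number. Still, all 6 arrays correlated best with the array of their own number. Xist and Eif2s3y signal also went with the number, as both arrays numbered 1 differed from the others. The samples may thus be paired, and whether arrays of 1 number share an animal was not tested. With the number as a replicate block 11 probe sets and 7 genes were higher and 0 lower. Of all 30175 probe sets, 2123 were higher and 2281 lower in that fit. The probe set added by the block was the dimmest of Myo5b (1.60, adjusted p = 0.046 by limma). Of all 30175 probe sets, 2605 were higher as reported, and 1074, 1246 and 1344 without DsRed-positive 1, 2 or 5. Without both arrays numbered 1, 2 or 5, 927, 1345 and 983 of the 30175 were higher. Without probe sets ending in _s_at, _x_at or _a_at, 1727 of 24175 were higher. The cause of these differences was not tested. Leaving out Myo5c, which has only a lower bound and was not ranked, Sytl2 had the largest value as reported. Without both arrays numbered 2 the value of Sytl2 was 5.02. Signal at or below the control level limits the folds of Myo5c, Sytl1, Sytl2 and Ap1m2.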
